A study of Mus musculus with 2 samples.

Results

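Lymphoid stromal nuclei are described here, nuclei with transcripts of marker genes of lymphoid stroma, among them the chemokines that gather lymphocytes, found in a single-nucleus library of inguinal white fat (iWAT) labelled Lexis WT. A barcode was taken as a member when 500 genes or more were detected in it and no more than 5% of its UMIs (unique molecular identifiers, each standing for 1 captured transcript) came from mitochondrial genes. It also needed at least 1 UMI of at least 3 of 11 marker genes, namely Ccl21a, Ccl19, Cxcl13, Clu, Enpp2, Grem1, Tnfsf11, Bst1, Ch25h, Robo2 and Msc. Finally, at most 1 of the 4 lymphocyte genes Pax5, Bank1, Skap1 and Themis and at most 1 of the 4 adipocyte genes Plin1, Plin4, Cidec and Lipe could be detected. This rule found 110 nuclei, which is 3.01% (95% interval 2.48 to 3.62) of the 3649 nuclei of that library that passed the limits on genes and mitochondrial UMIs, and 110 of 6593 such nuclei in both libraries. The members were selected on the counts of these 19 genes, so levels of these genes in members are given as a description only. At least 1 of the chemokine genes Ccl21a, Ccl19 and Cxcl13 was detected in 102 members (92.7%) and none in 8.

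The study asked how loss of the long noncoding RNA Lexis from adipocytes bears on the cells of white fat. Nuclei came from iWAT of male C57BL/6 mice on Western diet, with tissue of 3 mice pooled into 1 library per genotype and the inguinal lymph node said to be left out at dissection. The library labelled WT stands for Lexis fl/fl mice without Cre (AdWT), and the library labelled KO for Lexis fl/fl mice with Adiponectin-Cre (AdKO), in which the adiponectin promoter drives Cre in adipocytes. Both groups thus carried the floxed allele and the diet. The study's methods give an age range, of young adult mice, for most of its experiments and none for these mice in particular. The names of the deposited files give the opposite genotype to the sample labels, and the targeted gene could not serve as a check, since Lexis counts were not used here. Each library goes by its label throughout. With 1 library per genotype there is no replicate and no test. All intervals are exact 95% intervals that cover counting error only, and CPM is a gene's count in the summed nuclei divided by their total UMIs, on the usual scale.

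Each library held 5000 deposited barcodes. The kept nuclei of the library labelled WT had 7064612 UMIs in all and a median of 1208, and the 2944 kept nuclei of the library labelled KO had a median of 3973.5. Members had 251191 UMIs in all, with a lowest value of 768, a median of 1738 and a highest value of 15283 per nucleus, and a median of 885.5 detected genes. The other kept nuclei of the same library had a median of 1194 UMIs, so members were deeper than most of the nuclei they are compared with. A rule that asks for 3 detected genes takes deep nuclei more easily. Of the barcodes, 12 occurred in both libraries, 10 among kept nuclei, and 1 of these was a member. Scrublet, a caller of doublets, called no nucleus by its automatic threshold, which is taken as a failure of the caller, and 3 of the 110 members lay among the 4% of kept nuclei with the highest scores.

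Lymphoid stroma is the scaffold on which lymphocytes move and meet in lymph nodes and in organised lymphoid tissue elsewhere. Fibroblastic reticular cells of T zones secrete the CCR7 ligands CCL19 and CCL21, follicular dendritic cells and stromal cells of B zones secrete the CXCR5 ligand CXCL13, and lymphotoxin from lymphocytes acts on the lymphotoxin beta receptor and non-canonical NF-kB to keep these programmes on. Inguinal fat surrounds a lymph node, and fat depots can also hold lymphoid clusters of their own.

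The upstream sequence of the 3 chemokine genes among the 11 marker genes is shown because their counts carry much of the description that follows. Ccl21a lies at chr4:42772860-42773991 and Ccl19 at chr4:42754525-42756365, both on the minus strand, and Cxcl13 at chr5:95956939-95961068 on the plus strand of GRCm38 (mm10). The 250 bases before each start site are from RefSeq promoters of GRCm38.p6, at chr4:42773992-42774241, chr4:42756366-42756615 and chr5:95956689-95956938, written 5′ to 3′ on the strand of the gene. Capitals mark the letters TATAAA, the usual box that places the start of transcription, and the letters ATAAATA. The matches overlap in Cxcl13.
Ccl21a: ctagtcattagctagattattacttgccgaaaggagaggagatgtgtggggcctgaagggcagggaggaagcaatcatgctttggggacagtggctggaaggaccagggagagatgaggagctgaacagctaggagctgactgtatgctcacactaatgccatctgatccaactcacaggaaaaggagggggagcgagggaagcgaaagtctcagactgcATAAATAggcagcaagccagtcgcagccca
Ccl19: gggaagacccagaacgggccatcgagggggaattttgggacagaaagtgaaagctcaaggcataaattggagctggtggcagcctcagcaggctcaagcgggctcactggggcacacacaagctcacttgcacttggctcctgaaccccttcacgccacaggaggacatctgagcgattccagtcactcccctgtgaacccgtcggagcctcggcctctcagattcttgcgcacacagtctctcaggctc
Cxcl13: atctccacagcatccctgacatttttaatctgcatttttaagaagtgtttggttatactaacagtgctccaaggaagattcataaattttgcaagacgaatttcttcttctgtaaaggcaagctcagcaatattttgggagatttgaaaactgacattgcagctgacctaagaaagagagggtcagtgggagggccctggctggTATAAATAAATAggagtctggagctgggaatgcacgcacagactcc
TATAAA was found in the Cxcl13 promoter, with its first base 46 bases before the start. ATAAATA was found in the Ccl21a promoter 30 bases before the start and in the Cxcl13 promoter 45 and 41 bases before it. Neither motif was found in the Ccl19 window. The NF-kB consensus had no match in the 3 windows. It was searched as GGGRNWYYCC, with R for A or G, N for any base, W for A or T and Y for C or T. Both strands were searched. Among 32851 RefSeq promoters cut to the same length, 12.4% held TATAAA, 5.17% held ATAAATA and 3.9% held the NF-kB consensus. ATAAATA was added after the sequences had been seen, and a match of letters is a description and not a binding site.

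The number of marker genes per nucleus fell off steeply, and the members are the upper end of that range. Within the limits, 1603 nuclei of the library labelled WT had none of the 11 marker genes, 624 had 1 and 128 had 2, just outside the rule. Just inside it, 40 nuclei had 3 marker genes, 28 had 4, 17 had 5, 16 had 6, 8 had 7 and 1 had 8. Another 55 kept nuclei had at least 3 marker genes but were left out by the lymphocyte or adipocyte genes.

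**Figure D1:**
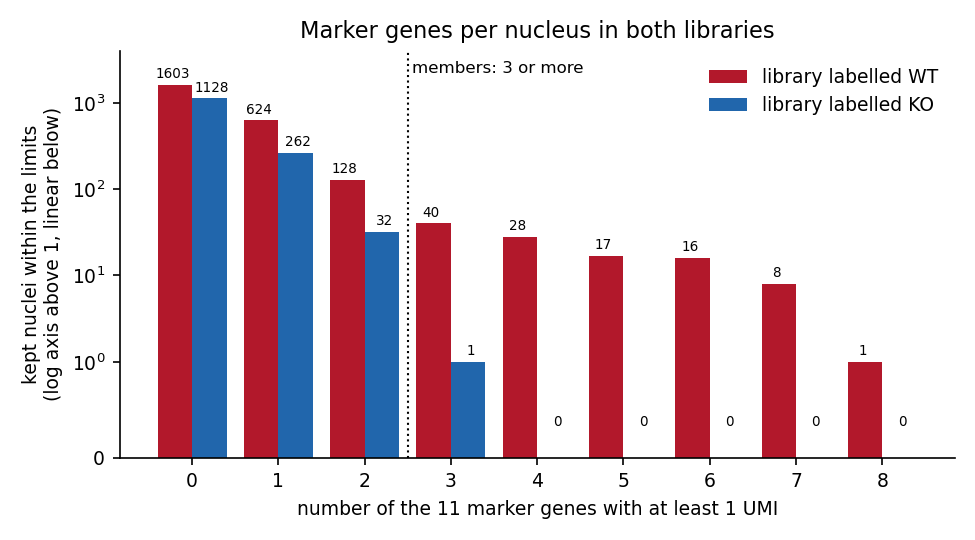
Number of kept nuclei (y, log axis above 1 and linear below) by the number of the 11 marker genes with at least 1 UMI (x), within the limits on lymphocyte and adipocyte genes, in the library labelled WT (red) and the library labelled KO (blue). To the right of the dotted line stand the 110 members and the 1 nucleus of the library labelled KO.

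The 6 genes that mark the label, Ccl21a, Ccl19, Cxcl13, Clu, Enpp2 and Grem1, are all part of the rule, so that their detection in members is no check of the label. Their levels are described first and genes outside the rule after them. To set depth aside, nuclei were thinned to 1000 UMIs, which kept 100 of the 110 members, 559 of 1065 B-class, 307 of 457 T-class, 302 of 359 fibroblast-class and 25 of 36 endothelial-class nuclei. Classes are kept nuclei outside the members with at least 2 detected genes of the marker list of a cell type and at least 2 more than of any other list. The B and T classes serve as the background of free RNA for stromal genes, with median depths before thinning of 1017 and 1119 UMIs, against 1738 in members and 1641 in the fibroblast class.

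Ccl21a, a CCR7 ligand, was found at equal depth in 53.0% of members (42.8 to 63.1), against 6.44% of B-class and 10.1% of T-class nuclei. Without thinning it was found in 70.0% of members, 9.95% of the B class and 10.9% of the T class. The fibroblast class, at 6.29%, lay at the level of the lymphocyte classes, while the endothelial class stood at 24.0% (9.36 to 45.1). Cxcl13, the CXCR5 ligand, was found at equal depth in 38.0% of members (28.5 to 48.3), 3.94% of the B class and 3.64% of the fibroblast class, and without thinning in 44.5%, 4.79% and 5.57%. Ccl19, the second CCR7 ligand, reached 19% of members (11.8 to 28.1) against 0.894% of the B class, and 30.0% against 1.41% without thinning. Outside the members, the 3 chemokines of the rule were thus detected in fibroblasts about as often as in lymphocytes.

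Clu, a secreted chaperone abundant in follicular dendritic cells, was found at equal depth in 68.0% of members (57.9 to 77.0), 7.33% of the B class and 32.0% of the endothelial class (14.9 to 53.5). Enpp2, which encodes the lysophosphatidic acid producing enzyme autotaxin, was found in 64.0% of members (53.8 to 73.4), 4.65% of the B class and 17.9% of the fibroblast class (13.7 to 22.7). Without thinning, the shares of members were 83.6% for Clu and 80.9% for Enpp2, and those of the B class 8.73% and 5.73%. Enpp2 in fibroblasts and Clu in endothelium were therefore above the lymphocyte background. The less abundant marker genes were detected in 7% to 23.0% of members at equal depth and in at most 0.716% of the B class. They were Ch25h, the first enzyme of oxysterol synthesis, at 19%, Msc, the transcription repressor musculin, at 23.0%, Robo2, a SLIT receptor, at 13%, Bst1, a surface ectoenzyme of stroma, at 10.0%, Tnfsf11, the ligand RANKL, at 8%, and Grem1, a BMP antagonist, at 7%.

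**Figure D2:**
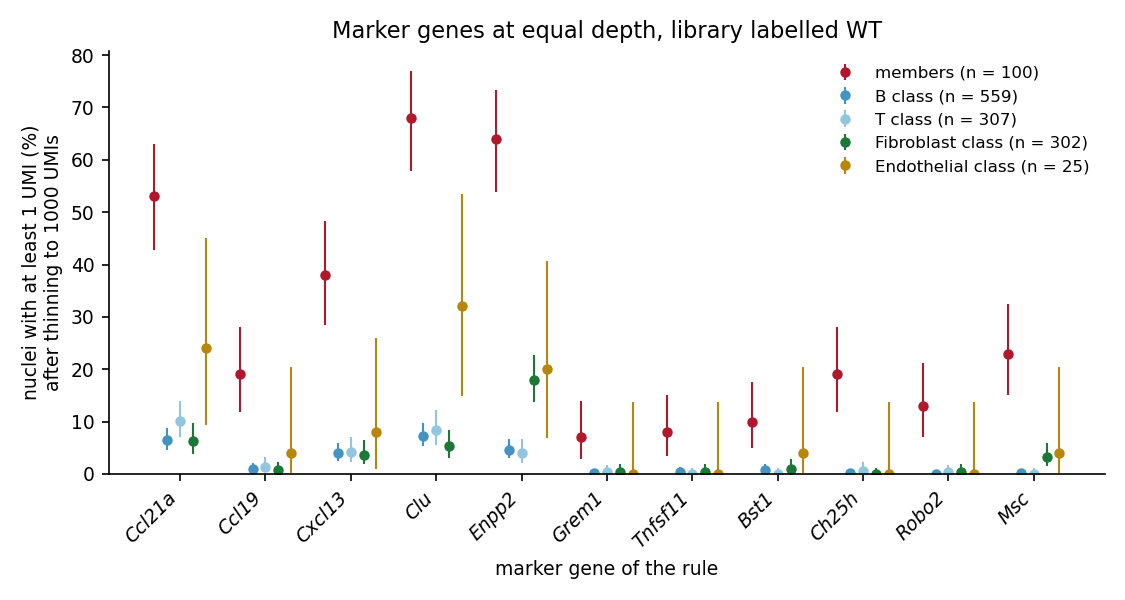
Share of nuclei with at least 1 UMI of each of the 11 marker genes (y, percent) after thinning every nucleus to 1000 UMIs, in members, B-class, T-class, fibroblast-class and endothelial-class nuclei of the library labelled WT, with exact 95% binomial intervals. Members were selected on these genes, and their shares run from 7% for Grem1 to 68.0% for Clu.

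Chemokine counts were spread unevenly over the members. Ccl21a had 741 counts in 77 members, with 1 as the lowest, 7 as the median and 58 as the highest value where it was detected, and 18 of the 77 members had a single UMI. Cxcl13 had 209 counts in 49 members, with a median of 2 and a highest value of 54, and 103 of the counts lay in 5 nuclei. Ccl19 had 78 counts in 33 members, with a median of 1 and a highest value of 10. A few nuclei thus carried much of the Cxcl13, while Ccl21a was high in many.

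Members held 46.0% of all 1610 Ccl21a counts in kept nuclei of the library, 49.1% of 159 Ccl19 counts and 39.2% of 533 Cxcl13 counts. Summed to CPM, Ccl21a stood at 2950 (2741 to 3170) in members and 128 in the other kept nuclei, Ccl19 at 311 and 11.9, and Cxcl13 at 832 and 47.6. The matrix has 2 rows each for Ccl21a and Ccl19 and further rows for the near-identical copies Ccl21b and Ccl21c. The values given are those of 1 row per gene, and the other rows held 0 counts in kept nuclei of this library except 1 count of Ccl21c. Reads shared by copies can be lost or misplaced, so that values of both Ccl21a and Ccl19 are uncertain, and with them the division of members by Ccl19. Among the other marker genes, Clu had 394 counts in 92 members with a highest value of 42, and Enpp2 had 333 counts in 89 members with a highest value of 18. Robo2 (40 counts in 25 members) and Ch25h (49 in 26) had the largest parts of their library counts in members, at 63.5% of 63 and 62.0% of 79.

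The marker genes overlapped within nuclei to different degrees. Ccl21a was detected in 30 of the 33 members with Ccl19 (90.9%), and in 25 of the 49 members with Cxcl13 (51.0%). Enpp2 was detected in 42 of the 49 members with Cxcl13 (85.7%) and in 24 of the 26 members with Ch25h. Robo2 went with Ccl21a in 21 of 25 members, whereas Ccl19 and Ch25h shared 3 members. The rule asks for 3 marker genes, so these overlaps are not independent of the choice of members.

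**Figure D3:**
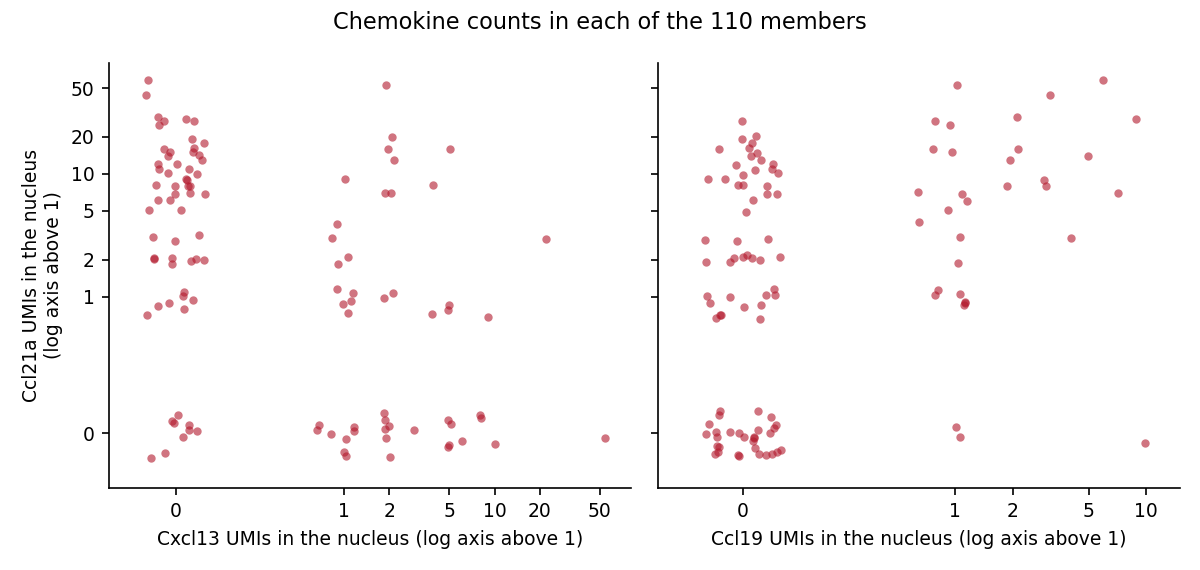
UMIs of Ccl21a (y) against UMIs of Cxcl13 (left) and Ccl19 (right) in each of the 110 members, 1 point per nucleus with a small random offset so that points do not cover each other (log axes above 1). The member with 54 Cxcl13 UMIs had none of Ccl21a, and most members with Ccl19 also held Ccl21a.

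What members shared beyond the rule was asked of the 13104 other genes with at least 20 counts in the library. Each member was set against the summed profiles of the classes and against the profile of the other members, with the member itself left out, and was given the most likely profile. By this measure 85 of 110 members (77.3%, 68.3 to 84.7) were closest to the other members, 7 to the B class, 7 to the fibroblast class, 5 to the endothelial class, 4 to the T class and 2 to the myeloid class. For 78 of the 85, the fibroblast class was the next closest profile. Of members with 4 or more marker genes 67 of 70 (95.7%) were closest to the other members, of members with 3 marker genes 18 of 40 (45%). Nuclei just outside the rule with 2 marker genes had 21 of 128 (16.4%), those with none 42 of 1603 (2.62%), and the fibroblast class 23 of 359 (6.41%). The nucleus with 54 Cxcl13 UMIs, which also held the highest Clu count of 42, had 3 marker genes and was among the 5 closest to the endothelial class. In CPM, Ccl21a stood at 1304 in members with 3 marker genes, 3979 in those with 4 or more and 449 in nuclei just outside with 2. Among genes outside the rule, Csmd1 stood at 155, 841 and 76.8 CPM, and Cxcl12 at 383, 1223 and 198 CPM in the same order. Members at the threshold were therefore a mixed set by this measure, and members with more marker genes were alike in genes the rule did not use. Median depth was 1394.5 UMIs with 3 marker genes, 1733 with 4, 1878 with 5 and 1630 with 6. Members with 4 or more also make up most of the profile they are matched to. The part of depth and of this make-up in the shares was not tested.

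Across those 13104 genes, 1432 (10.9%) reached 2 times the CPM of all other kept nuclei or more in members and 2116 (16.1%) stayed at 0.5 times or less, with a median log2 ratio of −0.16. Against the fibroblast class, the class most like the members, 630 of 7860 genes with at least 20 counts in both sums together (8.02%) reached 2 times or more and 960 (12.2%) stayed at 0.5 times or less, with a median log2 ratio of −0.02. TMM scaling would shift all log2 ratios to the fibroblast class by −0.12. These percentages are the background for the genes and lists that follow.

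The genes with the highest ratios to the other kept nuclei that were spread over many members were those of receptors, adhesion and secreted proteins. Csmd1, which encodes a large membrane protein with complement control domains, had 145 counts in 59 members and at most 16 in 1 nucleus. Its ratio was 32.5 (25.4 to 41.7) to all other kept nuclei and 18.6 (12.2 to 29.4) to the fibroblast class of the same library, which stood at 31.0 CPM. In the library labelled KO the fibroblast class stood at 214 CPM of Csmd1, with 737 counts in 88 of 809 nuclei, so the gene was also found in fibroblasts. Igfbp3, a carrier of insulin-like growth factors, had 196 counts in 60 members and ratios of 21.3 (17.5 to 25.7) and 15.6 (11.1 to 22.3). At equal depth Csmd1 was found in 41.0% of members and 0.716% of the B class, and Igfbp3 in 49.0% and 1.97%. Both genes, which the rule did not use, were thus detected in members at shares near that of Cxcl13.

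Other genes of this kind were less abundant and again spread over nuclei. Pcdh15, a protocadherin, had 79 counts in 39 members (ratio 34.6 to the other kept nuclei), Dsc3, a desmosomal cadherin, 57 in 36 (30.9), and Unc5c, a netrin receptor, 29 in 24 (29.1). Slc7a11, the cystine transporter, had 95 counts in 28 members with 16 in 1 nucleus (ratio 21.8, or 18.3 without that nucleus). Csf2rb2, a receptor subunit for interleukin 3, had 86 counts in 47 members and a ratio of 14.3 (8.74 to 24.6) to the fibroblast class. Il33, an alarmin cytokine of lymphoid stroma, had 27 counts in 15 members and a ratio of 24.4 (14.0 to 42.5), or 18.4 without its highest nucleus. Further genes of this rank that did not rest on 1 nucleus included Fmod (fibromodulin, 20 counts), Serpina10 (32), Kcne4 (25), Insrr (21), Stc1 (29, of which 12 in 1 nucleus), and the gene models Gm16685 (74) and Gm36899 (22). Gm36899 had no count in the fibroblast class. Its ratio to that class had a lower 95% limit of 18.3, and was 24.5 with the class set at 3 counts.

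A second kind of high ratio came from single nuclei. All 78 counts of Mfap4, 61 of 65 of Wisp2, 90 of 111 of Cilp, 49 of 51 of Isg15 and 53 of 67 of Glycam1 lay in 1 member each. Without that nucleus Mfap4 had no count left in members, Isg15 a ratio of 0.767 to the other kept nuclei, and Wisp2 a ratio of 0.355 to the fibroblast class. Cilp, found in 13 members, was then at 4.27 to the other kept nuclei and 0.910 to the fibroblast class, and Glycam1, found in 10, at 1.68 and 7.92. The high ratios of these 5 genes thus rested largely on single nuclei. The same holds in part for Dcn (decorin, 537 counts, 268 of them in 1 nucleus) and Gsn (gelsolin, 494 counts, 177 in 1). Apoe, an apolipoprotein, was abundant across members, with 786 counts in 94 nuclei and ratios of 3.38 to the other kept nuclei and 4.71 (4.22 to 5.26) to the fibroblast class. The most abundant gene, Gm42418, which overlaps ribosomal RNA repeats, had 4501 counts and a ratio of 0.776.

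Gene lists of lymphoid stroma were then compared with the fibroblast class, leaving out genes of the rule and class markers. A gene counts as measured with at least 20 counts in both sums together, so that a gene low in fibroblasts can pass through its counts in members, and the numbers of measured genes describe those genes and not whole lists. That class was selected on Pdgfra, Dcn, Col1a1, Col1a2, Col3a1, Pi16, Dpp4, Fbn1, Lum and Mfap5 and on a lack of markers of other classes. In the list of reticular cell genes, 8 of 16 measured genes reached 2 times the fibroblast level or more and 0 were at 0.5 times or less, with a median log2 ratio of 0.94, which was 0.29 for genes with at least 50 counts. Beyond counting error 9 were higher and 1 lower. Cxcl12, the CXCR4 ligand of stromal niches, had 226 counts in 62 members and a ratio of 6.23 (4.97 to 7.83), and Vcam1, an adhesion molecule for lymphocytes, 137 counts in 57 members and 4.08 (3.16 to 5.28). Cxcl12 was not higher than in the endothelial class (ratio 0.861, 0.653 to 1.15). Icam1 had a ratio of 2.12 and Pdgfrb 1.73 (1.37 to 2.17). Pdpn, the gene of the reticular cell antigen podoplanin, had 15 counts in 7 members with 8 in 1 nucleus, and its ratio of 1.22 (0.627 to 2.25) was within counting error. Cxcl10 had 17 of its 19 counts in 1 nucleus.

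Cytokines that keep lymphocytes and other immune cells alive were compared in the same way. In the list of niche cytokines, 5 of 9 measured genes reached 2 times the fibroblast level or more and 1 was at 0.5 times or less, with a median log2 ratio of 1.29, which was 0.52 for genes with at least 5 counts. Tnfsf13b, which encodes the B cell survival factor BAFF, had 33 counts in 22 members and a ratio of 11 (5.30 to 25.0). Flt3l, the growth factor of dendritic cells, had 66 counts in 39 members and 6.47 (4.22 to 10.1), and Il7, needed by T cells, 14 counts in 12 members, beside 7 in the fibroblast class, and 6.67 (2.52 to 19.5). Kitl had a ratio of 2.44 and Csf1 one of 0.827 (0.607 to 1.11). BAFF, FLT3 ligand and IL-7 transcripts were thus higher in members than in the fibroblasts of the same library, while Csf1 was within counting error.

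Of the list for follicular dendritic cells, 6 of 9 measured genes reached 2 times the fibroblast level or more, with a median log2 ratio of 1.11. Mfge8, which tags dying cells for uptake, had 245 counts in 76 members and a ratio of 8.34 (6.57 to 10.7). C3 had 403 counts in 74 members and a ratio of 2.18 (1.92 to 2.48), and C4b 181 in 66 and 1.95 (1.61 to 2.35). Cr2, the complement receptor CD21, had 62 counts in 25 members and a ratio of 4.05 (2.75 to 5.99) to the fibroblast class, but 0.967 (0.738 to 1.25) to all other kept nuclei. B cells express Cr2 too, and so the CD23 gene Fcer2a, with a ratio of 2.16 to the fibroblast class and 0.414 to all other kept nuclei. Madcam1, an addressin of high endothelium and follicular stroma, had 6 counts in 5 members and 6 counts in the 3539 other kept nuclei. Across complement genes as a whole, 2 of 11 reached 2 times or more and the median log2 ratio was 0.19.

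In the lymphotoxin and NF-kB list, 6 of 15 measured genes reached 2 times the fibroblast level or more and 0 were at 0.5 times or less, with a median log2 ratio of 0.72. Markers of immune cells had medians of like size in this comparison, at 0.95 for B cell, 0.88 for T cell and 0.74 for myeloid genes, beside 0.94 for the reticular list, and their part in these lists was not tested. Birc2, which encodes an inhibitor of apoptosis that restrains non-canonical NF-kB, had 309 counts in 86 members and a ratio of 4.54 (3.81 to 5.41). Relb, the transcription factor at the end of that pathway, had 44 counts in 27 members and 4.08 (2.56 to 6.52), and Map3k14, its kinase NIK, 23 counts and 2.26 (1.27 to 3.94). The NF-kB target genes Nfkbia and Birc3 had ratios of 3.05 (2.06 to 4.50) and 2.91 (1.87 to 4.52). The receptor gene Ltbr had 11 counts and a ratio of 1.31 (0.589 to 2.72), within counting error. The ligand gene Ltb had 36 counts in members and was lower than in all other kept nuclei, which include lymphocytes, at a ratio of 0.394 (0.276 to 0.548). Against these nuclei, 5 of 20 measured genes of the list reached 2 times or more and 3 were at 0.5 times or less. Beyond counting error 8 were higher and 4 lower, and the median log2 ratio was 0.49.

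In the list of chemokines and their receptors, 5 of 7 measured genes outside the rule reached 2 times the fibroblast level or more and 1 was at 0.5 times or less, with a median log2 ratio of 1.30. These genes were Cxcl12, Cxcl16, Ccl2, Ccl7 and the receptor genes Ccr7, Cxcr4 and Ackr3. The fibroblast class was selected on a lack of lymphocyte markers, and the part of lymphocyte RNA in this median was not tested. Against all other kept nuclei, which include lymphocytes, 3 of 11 measured genes reached 2 times or more and 0 were at 0.5 times or less. The median log2 ratio was then 0.22. Cxcl16 had 39 counts in 29 members and a ratio of 3.52 (2.18 to 5.67), and Ccl2 a ratio of 2.48 (1.43 to 4.24), or 1.93 without its highest nucleus. Ackr3, a scavenging receptor for CXCL12, had 10 counts and a ratio of 0.195 (0.0919 to 0.368). Ackr4, which scavenges CCL19 and CCL21, had no count in members.

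**Figure D4:**
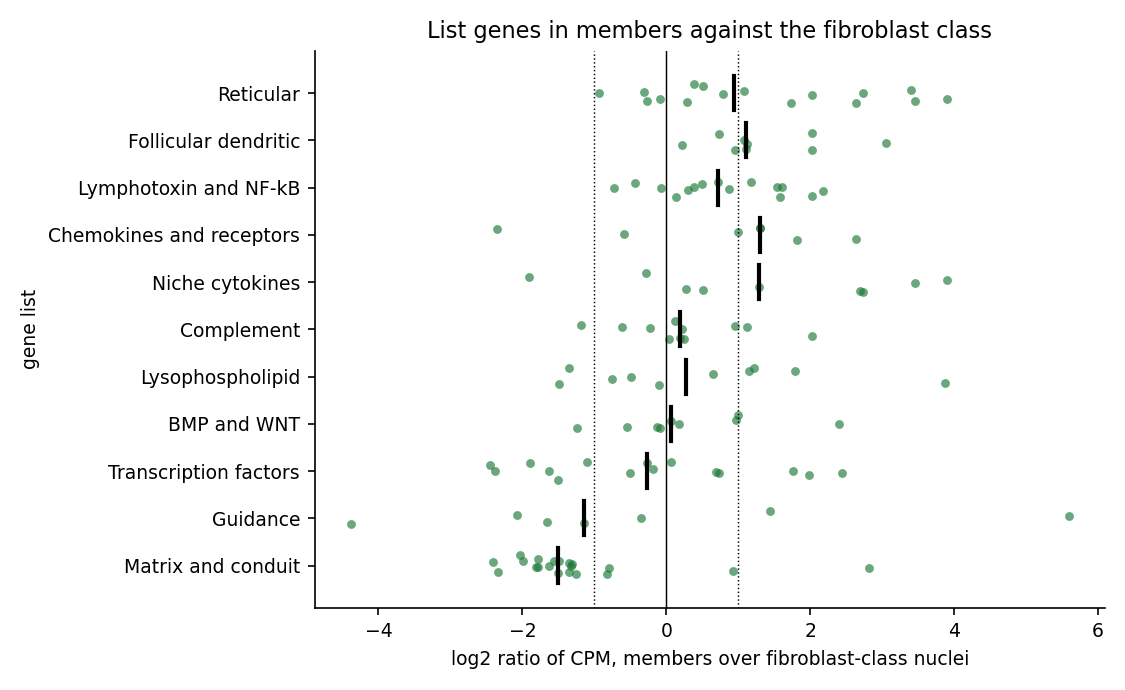
Log2 ratio of CPM in members over fibroblast-class nuclei for each measured gene outside the rule and the class markers (points), by gene list, with the median of each list as a black bar and dotted lines at a ratio of 2 and of 0.5. Medians run from −1.50 for matrix and conduit genes to 1.30 for chemokines and receptors, beside −0.02 over all 7860 genes.

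Genes of the extracellular matrix went the other way. Of 20 measured matrix and conduit genes, 16 were at 0.5 times the fibroblast level or less and 1 at 2 times or more, with a median log2 ratio of −1.50, and 18 were lower beyond counting error. Col6a3 had a ratio of 0.197 (0.140 to 0.272), the basement membrane gene Nid1 0.189 (0.131 to 0.264) and Fn1 0.341 (0.287 to 0.402). The exception was Vtn, the gene of the adhesive glycoprotein vitronectin, with 19 counts in 15 members and 7.04 (3.04 to 17.7). Compared with all other kept nuclei, in which lymphocytes and adipocytes prevail, 4 of the 20 reached 2 times or more and 0 were at 0.5 times or less, and beyond counting error 10 were higher and 2 lower. In 1 nucleus each lay most counts of Col14a1 (40 of 54) and Tnxb (52 of 79) and a smaller part of those of Sparc (95 of 246) and Fn1 (48 of 155). Without that nucleus their ratios to the other kept nuclei were 0.932, 0.616, 1.04 and 1.26. The ratios of Col4a2, Col5a1, Lamb1 and Lamc1 to the other kept nuclei also crossed 1 without the nucleus with most counts. The stromal receptor gene Pdgfra, one of the genes that select the fibroblast class, had 118 counts in 63 members. The 7 members closest to the fibroblast class held 287 counts of Col3a1, and the 85 closest to the other members held 138. Most measured matrix genes were thus lower in members than in the fibroblast class. That class was itself selected on collagen and other matrix genes, and the part of this selection in the lower ratios was not tested.

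Genes of lipid signals went both ways. Of 10 measured genes for lysophospholipid signals outside the rule, 4 reached 2 times the fibroblast level or more and 2 were at 0.5 times or less, with a median log2 ratio of 0.28. Spns2, which exports sphingosine 1-phosphate, had 22 counts in 19 members and a ratio of 14.7 (5.42 to 49.6), and the sphingosine 1-phosphate receptor gene S1pr3 28 counts and 2.33 (1.39 to 3.88). The lipid phosphatase genes Plpp1 and Plpp3 went apart, at 3.46 (1.96 to 6.1) and 0.391 (0.280 to 0.533). In the oxysterol list, Hsd3b7 had 2 counts and Cyp7b1 3 in members, and the receptor gene Gpr183 had a ratio of 0.380 (0.173 to 0.725) to all other kept nuclei.

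Lists of growth factor, guidance and transcription factor genes were also compared with the fibroblast class. Of 9 measured BMP and WNT genes 2 reached 2 times or more and 1 was at 0.5 times or less, and the median log2 ratio was 0.06. Of those, Sfrp1 had 18 of its 19 counts in 1 nucleus. Of 7 axon guidance genes 2 reached that level and 4 were at 0.5 times or less, with a median of −1.14, which was −3.23 for genes with at least 50 counts. Robo1 had a ratio of 2.71 (1.2 to 6.01) and Sema3c of 0.0478 (0.0174 to 0.105). Of 15 measured transcription factor genes 3 reached it and 6 were at 0.5 times or less, with a median of −0.26. Meox2 had 26 counts in 22 members and a ratio of 5.42 (2.80 to 10.8), Nr2f1 3.96 (1.93 to 8.24) and Nr2f2, a factor of venous endothelium and stroma, 3.40 (2.24 to 5.18). The adipogenic factors Pparg and Ebf2 had ratios of 0.268 (0.105 to 0.577) and 0.183 (0.0581 to 0.444), and Ebf1, also a factor of B cells, of 0.464. Tcf21, Nkx2-3 and Tlx1, factors of visceral and splenic stroma, had no count in members or in the other kept nuclei of the library. The 3 genes of dividing cells had 2 counts of Mki67, 1 of Top2a and 0 of Cenpf, all at 0.5 times the fibroblast level or less.

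Markers of other cell types were summed in members for comparison. Mural genes, those of pericytes and smooth muscle, stood at 490 CPM in members and 112 CPM in the other kept nuclei. Against these nuclei all 8 mural genes were measured, and 5 of them reached 2 times or more. Beyond counting error 5 were higher and 1 lower. Against the fibroblast class, 5 of 5 measured mural genes reached 2 times its level. Rgs5, Cspg4 and Acta2 had too few counts to be measured there, and a gene low in that class can pass through its counts in members. Abcc9 and Kcnj8, the subunits of a potassium channel of pericytes, had ratios of 5.98 (3.55 to 10.3) and 6.67 (2.85 to 16.9), and Myh11, a smooth muscle myosin, 11 (4.55 to 30.2). The pericyte gene Rgs5 had 5 counts, Cspg4 had 1 and Acta2 had 4. In all, 25 of 110 members had at least 2 of the 8 mural genes and 1 had 4 or more.

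The 10 B cell markers stood at 808 CPM in members, 2331 CPM in the other kept nuclei and 812 CPM in the T class, and 13 of 110 members had at least 4 of them. The 10 T cell markers stood at 458 CPM, against 1146 CPM and, in the B class, 555 CPM. Adipocyte markers stood at 299 CPM against 601 CPM in the B class. The summed B, T and adipocyte markers in members were hence at or below their level in a lymphocyte class that should lack them, and the rule itself limits 8 of these genes. Myeloid markers stood at 836 CPM, above the B class at 626 CPM, and endothelial markers at 414 CPM, between the B class at 433 CPM and the T class at 314 CPM. Against the fibroblast class, 2 of 7 measured B markers and 2 of 7 T markers reached 2 times or more, in comparison with a class selected on lacking them. Endothelial markers were uneven, with at least 4 in 7 members, and Pecam1 had 38 counts in 19 members. Lymphatic genes were rare, with 1 count of Prox1, 0 of Reln and 18 of Lyve1, of which 12 lay in 1 nucleus. Among high endothelial genes, Glycam1 had 67 counts in 10 members, with the ratios given above, Chst4 had 5 counts, and Sele and Selp had none. Sox10, a Schwann cell gene, had 0 counts, and of plasma cell genes Jchain had 0 and Mzb1 1. In the dendritic cell list, 2 of 6 measured genes reached 2 times the level of the other kept nuclei and 1 was at 0.5 times or less, with a median log2 ratio of −0.19, and 1 was higher beyond counting error. The part of free RNA or doublets in these values was not tested.

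Members were also set apart by the 2 kinds of chemokine they held, as a description, since both genes are part of the rule and many members had 1 or 2 UMIs of them. Cxcl13 without Ccl19 was detected in 39 members, Ccl19 without Cxcl13 in 23, both in 10 and neither in 38. Median depths were 1700, 1833, 2111.5 and 1658 UMIs. Between the first 2 sets, 57 of 843 genes outside the rule with at least 20 counts (6.76%) were at 2 times or more with Cxcl13, and 80 (9.49%) at 0.5 times or less. The median log2 ratio over all these genes was −0.12, so the genes as a whole lay slightly toward the Ccl19 side. Beyond counting error 29 genes (3.44%) were higher with Cxcl13 and 78 (9.25%) with Ccl19, beside up to 2.5% on each side that 95% intervals leave outside by counting alone. The share on the Cxcl13 side was near that level, so single genes on that side are given as values.

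Other marker genes were unequal between these sets. Ccl21a had 88 counts in 17 of the 39 members with Cxcl13 alone and 327 counts in 22 of the 23 with Ccl19 alone, a ratio of 0.151 (0.118 to 0.191). Enpp2 had 182 and 28 counts, a ratio of 3.64 (2.44 to 5.64), and Ch25h 26 and 3 counts, a ratio of 4.86 (1.49 to 25.1). Robo2 was higher with Ccl19, with 3 and 18 counts and a ratio of 0.0934 (0.0176 to 0.320), while Clu had a ratio of 0.993 (0.764 to 1.30). Since 3 marker genes make a member, a nucleus without Ccl19 had to hold others, which touches all 5 of these genes.

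Genes outside the rule were then compared. With Cxcl13, the complement receptor gene Cr2 had 32 counts against 3, a ratio of 5.98 (1.87 to 30.5), or 4.29 without its highest nucleus. B cells express Cr2 too, and the part of B cell RNA in this ratio was not tested. Pcdh15 had 50 against 7 (4.00, 1.81 to 10.5), the kinase gene Cdk8 56 against 5 (6.28, 2.54 to 20.1), and Mfge8 115 against 40 (1.61, 1.12 to 2.37, or 1.25 without its highest nucleus). The stromal transcription factor gene Prrx1 had a ratio of 3.04 (1.34 to 8.08). All 6 counts of Madcam1 fell in 5 members with Cxcl13 alone, against 0 in the 23 members with Ccl19 alone. For Madcam1 the ratio could not be told from 1, with a lower limit of 0.660. The follicular dendritic list went both ways, since of its 6 genes with at least 20 counts in these sets 2 (Cr2 and Mfge8) were higher with Cxcl13 beyond counting error, 3 (C3, C4b and Vcam1) were higher with Ccl19 and Icam1 was within it.

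With Ccl19, Slc7a11 had 72 counts against 6, a ratio of 0.0467 (0.0166 to 0.107) of Cxcl13 over Ccl19. Itga1, a collagen receptor subunit, had a ratio of 0.291 (0.174 to 0.477), and Dnm3os, a noncoding RNA of stromal cells, 0.125 (0.0500 to 0.273). The stromal factors Cxcl12, with a ratio of 0.355 (0.239 to 0.523), Vcam1, with 0.60 (0.387 to 0.931), Tnfsf13b, with 0.172 (0.0410 to 0.558), and Il33, with 0.255 (0.0694 to 0.795), were also higher with Ccl19. So were Apoe at 0.411 (0.341 to 0.494), C3 at 0.391 (0.299 to 0.511) and C4b at 0.469 (0.310 to 0.706). Tnfsf13b and Il33 had fewer than 20 counts in these sets. Of the 11 Il33 counts with Ccl19, 7 lay in 1 nucleus, so that its higher value rested largely on that nucleus. Of the 4 reticular genes with at least 20 counts, Cxcl12 and Vcam1 were higher with Ccl19, and Icam1, at 0.764 (0.328 to 1.84), and Pdgfrb, at 0.747 (0.465 to 1.21), were within counting error. Of all 16 reticular genes with any count, 5 were higher with Ccl19, Il33 among them, 0 with Cxcl13 and 11 within counting error. Mmp12 had 22 of its 23 counts with Ccl19 in 1 nucleus, and its ratio became 1.04 without it. Among named genes within counting error was Dsc3, with 1.29 (0.590 to 3.03).

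**Figure D5:**
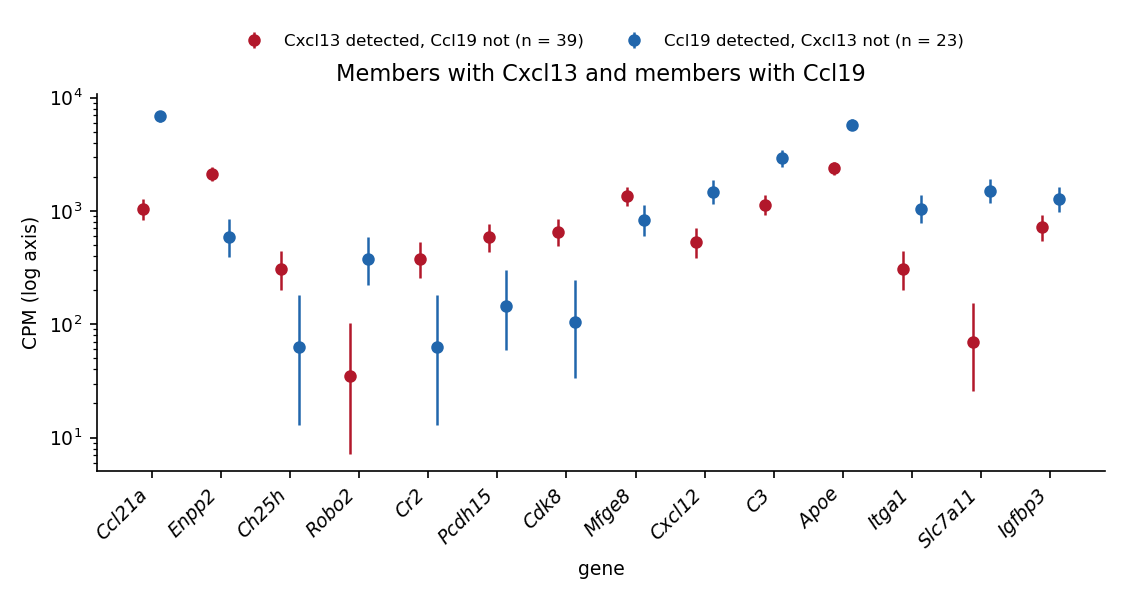
CPM (y, log axis) of 14 genes (x) in the 39 members with Cxcl13 and no Ccl19 (red) and the 23 members with Ccl19 and no Cxcl13 (blue), summed over nuclei, with exact 95% Poisson intervals. Enpp2, Ch25h, Cr2, Pcdh15 and Cdk8 lie higher in red, and Ccl21a, Robo2, Cxcl12, C3, Apoe, Itga1 and Slc7a11 higher in blue.

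The 38 members with neither gene were described as well, and how alike they were was not measured. They held 240 counts of Ccl21a in 30 nuclei and 95 of Enpp2 in 32. Of the 38 Pecam1 counts in members, 32 lay in 14 of these nuclei, and 63 of 67 Glycam1 counts lay in 6, with 53 in 1 nucleus. Of 18 Lyve1 counts, 16 lay in members of this set, but 12 of them in 1 nucleus that was closest to the myeloid class. Counts of Pecam1, an endothelial marker, thus lay mostly in members that had neither Cxcl13 nor Ccl19.

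The rule was also applied to the library labelled KO, where it found 1 of 2944 kept nuclei (0.0340%, 0.000860 to 0.189). That nucleus had 5015 UMIs, with 8 counts of Cxcl13, 6 of Enpp2 and 1 of Msc, and it held 47 counts of Dcn, 30 of Col1a1 and 7 of Pdgfra. With every nucleus thinned to 1000 UMIs, the rule found 81 of 2411 nuclei (3.36%, 2.68 to 4.16) in the library labelled WT. In the library labelled KO it then found 2 of 2827 (0.0707%, 0.00857 to 0.255). These intervals cover the counting of nuclei within 1 library each and do not test a difference between the libraries. Over all kept nuclei, every marker gene other than Enpp2 had a lower CPM in the library labelled KO. Ccl21a stood at 4.21 CPM there (70 counts) and 228 CPM in the library labelled WT (1610 counts), Ccl19 at 0.120 and 22.5 CPM (2 and 159 counts), and Ch25h at 0.120 and 11.2 CPM (2 and 79 counts). Cxcl13 stood at 14.9 and 75.4 CPM (247 and 533 counts). Enpp2 went the other way, at 224 and 166 CPM (3723 and 1173 counts). The libraries also differed in lymphocytes, with 1065 B-class and 457 T-class nuclei in the library labelled WT and 24 and 46 in the library labelled KO. Genotype, the pooled mice, and dissection cannot be told apart with 1 library each.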

How the data were processed

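UMI counts per gene and barcode were deposited by the authors as Cell Ranger matrices, version 6.1.1 per the file headers, on mm10 and with Seurat 4 in the submitters' processing notes. The counts are not normalized, and whether intronic reads were counted is not given in the sources used here. Starting from these counts, members were taken by the rule given above. Other kept nuclei with enough markers of 1 cell type were placed in 8 classes, and the rest were left in no class. The members and the 18 gene lists were chosen with earlier results of these data known. Counts were summed over nuclei and compared as ratios of CPM for genes with at least 20 counts. Where a ratio over a count of 0 is given, the 0 was set at 3 counts. A list counts only such measured genes outside the rule and the class markers. Genes named outside the lists were the 20 with the highest lower limit of the ratio to all other kept nuclei, the 10 with the highest to the fibroblast class and the 5 most abundant in members. Some genes that the rule or the lists take in are not reported here. With 1 library per genotype no test was run, and all intervals are exact (Poisson, Clopper-Pearson or conditional binomial). Members were matched to profiles by multinomial likelihood with a pseudocount of 0.5. Alternatives changed the limits on genes, markers and counts, subtracted free RNA, used TMM factors or took nuclei out. Doublets were scored and left in. Python 3.11.15, numpy 2.4.6, scipy 1.17.1, scanpy 1.11.5, matplotlib 3.10.9, R 4.3.3 and edgeR 4.0.16 (for TMM factors only) were used, and the scripts were tested on simulated data.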

Additional observations from a re-analysis of the deposited data

Results flagged for a closer look

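Cxcl13 was also found outside the members. In the library labelled KO, 192 of the 247 Cxcl13 counts of kept nuclei lay in 69 of 809 fibroblast-class nuclei, with up to 22 in 1 nucleus. That is 55.8 CPM (48.2 to 64.3), beside 0 counts in the 24 B-class and 46 T-class nuclei of that library, which by their small totals allow up to 73.6 and 33.0 CPM. Ccl21a had 4 counts in the same 809 nuclei and Ccl19 had 1. The members of the library labelled WT stood at 832 CPM of Cxcl13 and its fibroblast class at 58.5 CPM.

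In the library labelled WT, 55 kept nuclei carried at least 3 marker genes and were left out because they held more than 1 lymphocyte or more than 1 adipocyte gene. They held 321 counts of Ccl21a (716 CPM) and 108 of Cxcl13 (241 CPM), and 12 of the 55 matched the members most closely over genes outside the rule. Below the limit on genes, 30 of 447 barcodes met the marker rule, and above the limit on mitochondrial UMIs 29 of 904 did. The number of members thus depends on these limits.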

How the results depend on the processing

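The number of members moved with the rule, from 110 to 43 with at least 1000 genes, 238 with at least 2 markers, 70 with at least 4 and 54 with no lymphocyte or adipocyte gene, and thinning gave 2 nuclei in the library labelled KO. Genes at 2 times the other kept nuclei or more became 2191 with at least 5 counts and 933 with at least 50, and those at 0.5 times or less 407 with free RNA subtracted. Against the fibroblast class these numbers became 1640 and 1520 with at least 5 counts, and 196 and 404 with at least 50. Between members with Cxcl13 and with Ccl19 they became 7 and 13 with at least 50 counts. Subtracting free RNA raised median log2 ratios to the other kept nuclei to 3.27 for reticular, 3.55 for follicular dendritic, 4.68 for lymphotoxin, 1.33 for chemokine, 3.76 for niche cytokine, 3.35 for lysophospholipid, 2.59 for complement, 1.81 for lymphatic and 1.96 for dendritic cell genes. Genes at the floor of 3 counts in both sums then drop out. Against the fibroblast class it gave 2.34 for reticular, 1.80 for follicular dendritic, 3.45 for lymphotoxin and 2.68 for niche cytokine genes. Count limits moved 3 of these medians, to 0.29 for reticular and −3.23 for guidance genes with at least 50 counts and 0.52 for niche cytokines with at least 5. The other 176 values of list medians stayed between the medians of the genes' lower and upper limits. No median was formed for lists with fewer than 5 measured genes.

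Ratios turned for genes held by 1 nucleus. To the other kept nuclei, Glycam1 was at 0.958 with at least 4 markers, and without the nucleus with most counts Isg15 was at 0.767 and Mfap4 at 0. To the fibroblast class, Mfap4 was at 0.346 and Wisp2 at 0.271 with at least 4 markers, and without that nucleus Mfap4 was at 0, Wisp2 at 0.355, Cilp at 0.910 and Isg15 at 0.617. Of the ratios of genes named by rank or abundance, Ccl21a among them, to the other kept nuclei and to the fibroblast class, 370 kept to their intervals, 82 moved and 9 turned. Ratios of other genes were recomputed only without the nucleus with most counts, and they crossed 1 for 42 of 226 list genes against the other kept nuclei, 16 of 174 against the fibroblast class and 13 of 67 genes between members with Cxcl13 and with Ccl19, with Icam1 at 1.09 and Mmp12 at 1.04 in the last. Leaving out the top nucleus, thinning the library labelled KO and the alternatives for the comparison of Cxcl13 with Ccl19 were chosen after seeing the data. The cause of the other moves was not tested. No paired analysis was possible because each genotype has 1 library and no test was run.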
